A study of Mus musculus with 10 samples.

Results

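The serum amyloid A family of the mouse was followed through liver RNA of 22-month-old mice that lacked Arg2, the mitochondrial arginase, in hepatocytes, and of their floxed littermates. Its members were the rows of the count table whose gene name was Saa1, Saa2, Saa3 or Saa4, which gave 4 of 55487 genes, and all 4 were among the 15894 genes tested. The LKO group (Arg2LKO, 5 libraries) carried the hepatocyte deletion, and the Flox group (Arg2fl/fl, 5 libraries) carried the floxed alleles without it. All mice were of the strain given as C57B/6J, were housed together as littermates on a normal chow diet and were 22 months old. The sources used here do not name the Cre driver that removed Arg2. The LKO columns of the table are numbered 1 to 5 while the LKO titles use other numbers, so LKO libraries are named here by their column.

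Serum amyloid A proteins are small apolipoproteins that travel on high-density lipoprotein (HDL). Hepatocytes make Saa1 and Saa2 at low levels at rest and in very large amounts in the acute phase response, when interleukin 6, interleukin 1 and tumour necrosis factor act on them through STAT3, NF-kappa B and C/EBP factors. Saa3 is in the mouse also made outside the hepatocyte, by macrophages and adipocytes among others, and Saa4 is the constitutive member of the family. Fragments of the inducible proteins form the fibrils of AA amyloid.

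The 4 genes lie side by side on chromosome 7 of GRCm38, in the GENCODE M21 annotation, in the order Saa3, Saa4, Saa1 and Saa2. Saa3 (ENSMUSG00000040026) spans 46711998 to 46715700, Saa4 (ENSMUSG00000040017) 46727998 to 46732603 and Saa1 (ENSMUSG00000074115) 46740497 to 46742980, all on the minus strand. Saa2 (ENSMUSG00000057465) spans 46751790 to 46754313 on the plus strand, so that Saa1 and Saa2 are transcribed away from each other. Because their levels moved together between libraries, their promoters are shown, from 250 bases before to 50 after the start in RefSeq's annotation of GRCm38.p6, read 5′ to 3′ on each gene's own strand. Capitals mark matches on either strand to the C/EBP core TTGCNNAA and, in Saa1, to the kappa B consensus; no 2 matches overlap.
Saa1, chr7:46742931-46743230, minus strand: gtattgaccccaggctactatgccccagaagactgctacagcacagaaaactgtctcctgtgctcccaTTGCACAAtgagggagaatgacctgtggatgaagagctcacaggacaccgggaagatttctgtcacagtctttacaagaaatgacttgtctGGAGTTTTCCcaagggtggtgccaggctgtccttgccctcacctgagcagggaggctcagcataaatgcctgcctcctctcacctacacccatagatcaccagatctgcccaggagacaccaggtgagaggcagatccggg
Saa2, chr7:46751583-46751882, plus strand: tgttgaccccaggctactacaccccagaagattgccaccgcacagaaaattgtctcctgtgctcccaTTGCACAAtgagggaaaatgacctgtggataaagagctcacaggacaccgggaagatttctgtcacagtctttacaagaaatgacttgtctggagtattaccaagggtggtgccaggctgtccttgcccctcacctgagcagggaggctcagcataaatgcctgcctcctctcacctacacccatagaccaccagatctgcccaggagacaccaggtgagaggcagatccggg
Saa3, chr7:46715627-46715926, minus strand: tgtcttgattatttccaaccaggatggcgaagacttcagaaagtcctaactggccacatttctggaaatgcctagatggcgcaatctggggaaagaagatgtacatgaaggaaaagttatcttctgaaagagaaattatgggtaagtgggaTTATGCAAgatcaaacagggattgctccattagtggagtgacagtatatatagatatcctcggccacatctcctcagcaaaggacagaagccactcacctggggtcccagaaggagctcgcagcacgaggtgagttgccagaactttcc
Saa4, chr7:46732554-46732853, minus strand: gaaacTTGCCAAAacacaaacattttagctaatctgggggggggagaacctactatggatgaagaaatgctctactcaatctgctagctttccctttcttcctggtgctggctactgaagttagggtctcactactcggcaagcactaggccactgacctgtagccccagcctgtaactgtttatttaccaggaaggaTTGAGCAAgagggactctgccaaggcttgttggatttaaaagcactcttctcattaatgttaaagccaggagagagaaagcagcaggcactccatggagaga

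The Saa1 and Saa2 promoters were 95.3% identical over the aligned bases, whereas the other pairs lay between 43.3% and 50.9%. The C/EBP core was found in all 4 windows, starting 182 bases before the start in Saa1, 183 in Saa2, 99 in Saa3, and 245 and 52 in Saa4. This core was present in 10.8% of 32544 mouse promoter windows of the same length. The kappa B consensus was matched 91 bases before the Saa1 start and in no other member, against 11.2% of all windows. The STAT core TTCNNNGAA (8.33% of all windows) and the TATA box TATAAA (13.6%) were not found in any of the 4 windows on either strand.

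Saa1 and Saa2 also share most of their coding sequence, which bears on how their reads can be told apart. The 2 coding sequences, from the GENCODE M21 transcripts, are each 369 bases long. Bases 61 to 360 of each are shown, counted from the first base of the start codon on the strand of the gene in GRCm38; they hold all 18 positions at which the sequences differ, in capitals.
Saa1: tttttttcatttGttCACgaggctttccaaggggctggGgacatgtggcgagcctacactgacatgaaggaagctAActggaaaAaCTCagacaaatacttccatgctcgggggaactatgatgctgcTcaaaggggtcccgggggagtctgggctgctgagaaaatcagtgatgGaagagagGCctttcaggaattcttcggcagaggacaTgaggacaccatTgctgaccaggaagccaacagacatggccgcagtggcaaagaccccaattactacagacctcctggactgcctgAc
Saa2: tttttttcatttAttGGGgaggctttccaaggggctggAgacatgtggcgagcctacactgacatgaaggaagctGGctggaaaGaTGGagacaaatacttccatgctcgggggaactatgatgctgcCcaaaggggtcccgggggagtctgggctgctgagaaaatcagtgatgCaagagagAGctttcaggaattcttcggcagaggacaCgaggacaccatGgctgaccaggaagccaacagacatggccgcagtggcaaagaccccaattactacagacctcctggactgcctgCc

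They were 95.1% identical, and the longest stretch without a difference was 73 bases. Saa1 was 76.1% identical to Saa3 and 65.2% identical to Saa4. Over the whole transcript, 14.8% of the 50-base windows of Saa1 and 13.3% of those of Saa2 were found in another gene, mainly in each other; for 75 bases the shares were 4.67% and 4.70%, and for 100 bases no window was shared. The sources used here give neither read length nor the treatment of reads that fit several places, so the Saa1 and Saa2 levels are uncertain as single genes. Levels are given for each gene, and the log2 fold change of their summed counts is given beside those of the single genes.

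The LKO libraries held 43331354 to 53891438 counts and the Flox libraries 44926666 to 54951415. Arg2 had 0, 0, 0, 4 and 6 counts in LKO 1 to 5 and 0, 4, 0, 5 and 0 counts in Flox 1 to 5; it was below the filter and not tested, and these counts do not check the deletion. The label of liver fitted the marker genes, with albumin (Alb) at 108156 ± 8695 CPM in LKO livers and 70359 ± 23821 CPM in Flox livers (SD, n = 5 each). Levels are CPM, counts scaled to a common library total corrected by TMM factors. Flox 2, 3 and 4 were the 3 highest libraries for each member, though for Saa3 Flox 4 (24.0 CPM) was close to LKO 2 (20.5 CPM). Results are therefore also given without Flox 2 and 3, the highest pair, a choice made after the data were seen. Leaving out all 3 would have removed most of the group on its outcome and was not done for the comparison of the groups.

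Saa1 and Saa2, the inducible members, ranged widely between livers. Saa1 stood at 26.4, 549.6, 252, 123 and 47.9 CPM in LKO 1 to 5, against 62.6, 9462, 16453, 1899 and 43.7 CPM in Flox 1 to 5. Flox 2, 3 and 4 were above every LKO library, while Flox 1 and 5 were within the LKO range. Saa2 stood at 12.1, 247, 148, 75.7 and 28.2 CPM in LKO 1 to 5, against 37.8, 7471, 17170, 1873 and 33.2 CPM in Flox 1 to 5. The same 3 Flox libraries were high, and the same 2 were within the LKO range. Between the lowest and the highest library there was a 623-fold range for Saa1 and a 1421-fold range for Saa2. By CPM, Saa2 ranked 6432nd and Saa1 4047th of all genes in LKO 1, the lowest library, whereas in Flox 3, the highest, Saa2 ranked 7th and Saa1 8th. The LKO livers themselves covered a 20.8-fold range of Saa1 and a 20.5-fold range of Saa2.

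Saa3, the member also made by macrophages, was low in all libraries but 1. It stood at 2.26, 20.5, 14.4, 10.9 and 4.45 CPM in LKO 1 to 5, against 5.33, 49.0, 1533, 24.0 and 4.11 CPM in Flox 1 to 5. Flox 3 was above every other library by a wide margin, Flox 2 and 4 were above the LKO range, and Flox 1 and 5 were within it. The range over the 10 libraries was 678-fold, and 373-fold within Flox. These levels rest on 102 to 973 counts in LKO libraries and on 225 to 70261 counts in Flox libraries.

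Saa4, the constitutive member, varied least, by 5.96-fold over the 10 libraries. It stood at 272, 549.9, 386, 380 and 301 CPM in LKO 1 to 5, against 411, 1269, 1482, 698 and 249 CPM in Flox 1 to 5. Flox 2, 3 and 4 were again the highest, Flox 1 was within the LKO range and Flox 5 was below all LKO libraries.

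**Figure D1:**
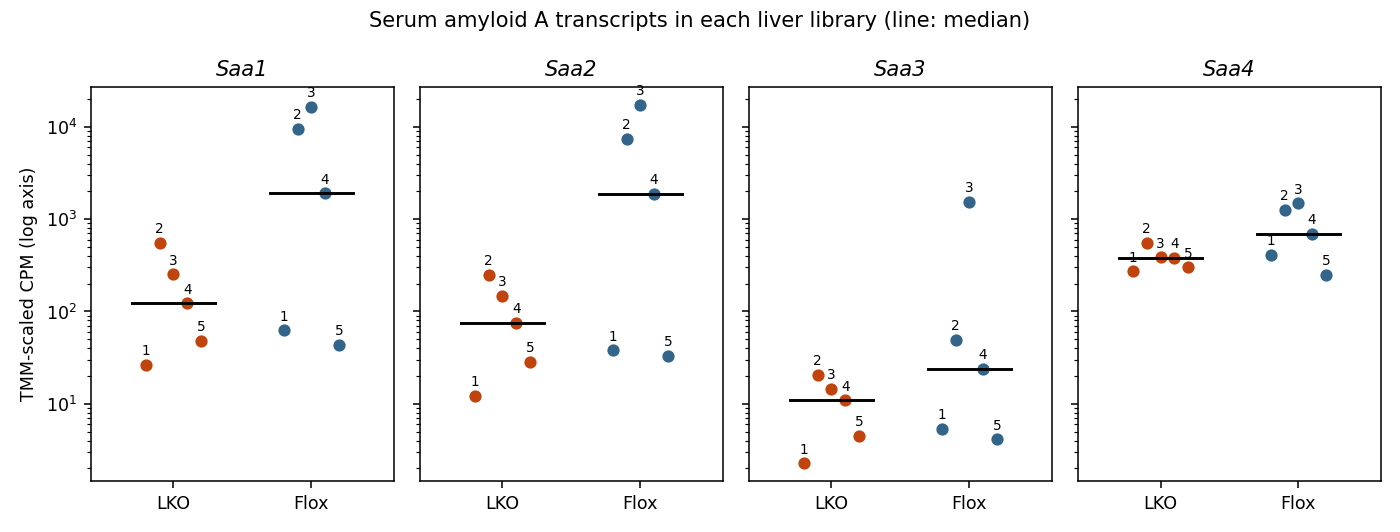
TMM-scaled CPM of the 4 genes on a log axis, 1 point per library with its number, LKO left and Flox right, with the group median as a line. Flox 2, 3 and 4 lie above all LKO libraries for each gene, and Saa3 reaches 1533 CPM in Flox 3 alone.

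No member passed the comparison of LKO with Flox. Saa1 averaged 199.8 ± 214.6 CPM in LKO and 5584 ± 7210 CPM in Flox (SD, n = 5 each), Saa2 102 ± 96.8 CPM in LKO and 5317 ± 7293 CPM in Flox, Saa3 10.5 ± 7.42 CPM in LKO and 323 ± 677 CPM in Flox, and Saa4 378 ± 108 CPM in LKO and 822 ± 536 CPM in Flox. The SD of the Flox group exceeded its mean for Saa1, Saa2 and Saa3. The log2 fold changes of LKO over Flox were -4.80 ± 1.69 (SE) for Saa1, -5.70 ± 1.80 for Saa2, -4.94 ± 1.78 for Saa3 and -1.12 ± 0.45 for Saa4, with edgeR's quasi-likelihood test at an adjusted p of 0.652 for each. With Saa1 and Saa2 counted as 1 gene the value was -5.17 ± 1.73 (edgeR adjusted p = 0.653).

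Each member had a negative value, as did 51.6% of all genes tested. The unadjusted p of edgeR's quasi-likelihood test was 0.0185 for Saa1, 0.0110 for Saa2, 0.0211 for Saa3 and 0.0303 for Saa4, so 4 of 4 members were under 0.05 on the lower side, where 4.33% of all genes were. The adjusted threshold was passed on the lower side by 0 of 4 members and by 0% of all genes, with 1193 genes under an unadjusted p of 0.05 in either direction (7.51%). For none of the 4 were all LKO libraries below all Flox libraries, which held for 0.371% of all genes. DESeq2 put Saa2 past the threshold (adjusted p = 0.0305, against a range up to 0.999 over the other settings tried), with 0.0733% of the genes given an adjusted p called lower and 11 genes (0.134%) called in either direction; Saa1 (0.109) and Saa4 (0.343) were not, and Saa3 was given no p, since the tool set it aside as an outlier in its counts.

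The size of the difference depended on few libraries. Without Flox 2 and 3 the log2 fold changes were -1.76 for Saa1, -2.68 for Saa2, -0.10 for Saa3 and -0.27 for Saa4 (edgeR adjusted p = 0.999 each). Without Flox 3 alone they were -3.85, -4.53, -0.98 and -0.80, in the same order of genes, and the Flox mean was 2867 CPM for Saa1, 2354 CPM for Saa2, 20.6 CPM for Saa3 and 657 CPM for Saa4. Among the LKO libraries, number 2 was the highest for each gene: without it the LKO mean was 112 CPM for Saa1, 66.0 CPM for Saa2 and 7.99 CPM for Saa3, and the log2 fold changes of Saa1 and Saa2 were -5.64 and -6.34. The differences of mean log2 CPM, which weigh each library's fold and not its level, were -3.04 for Saa1, -3.66 for Saa2, -2.05 for Saa3 and -0.87 for Saa4, with two-sided exact permutation p of 0.167, 0.127, 0.262 and 0.151; the smallest p that 5 against 5 allows is 0.00794.

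**Figure D2:**
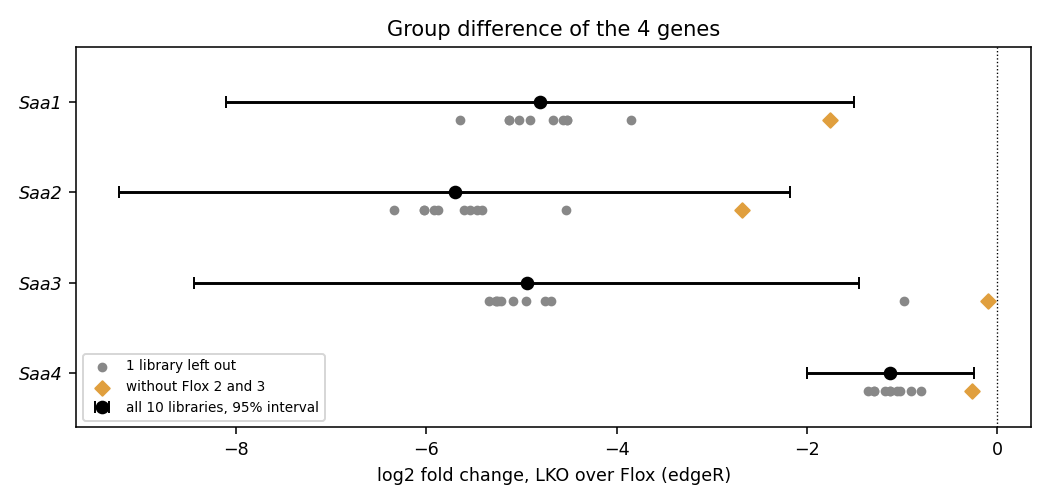
The log2 fold change of LKO over Flox for each gene (edgeR), with its 95% interval over all 10 libraries in black, the values with 1 library left out in grey and the value without Flox 2 and 3 as a diamond. Saa3 stands at -4.94 with all libraries and at -0.98 without Flox 3.

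Per kilobase of transcript, the 4 genes changed places between libraries. Scaled by the length of the coding transcript linked to RefSeq (609, 606, 555 and 2094 bases for Saa1 to Saa4), the median level in LKO was 201 CPM per kb for Saa1, 181 for Saa4, 125 for Saa2 and 19.6 for Saa3. In Flox the median was 3118 CPM per kb for Saa1, 3090 for Saa2, 333 for Saa4 and 43.3 for Saa3. Neighbours in these orders had overlapping ranges in each group: in LKO the levels ran from 43.4 to 902 CPM per kb for Saa1, 130 to 263 for Saa4, 19.9 to 408 for Saa2 and 4.07 to 37.0 for Saa3. Within a library Saa3 was below Saa2 in all 10. By this length Saa4 was the leading member per kilobase in LKO 1 and 5 and Flox 1 and 5, and Saa1 or Saa2 led in the other 6 libraries. With the union of all annotated exons as the length, which includes transcripts with retained introns, the LKO medians were 181 CPM per kb for Saa4, 49.5 for Saa1, 30.1 for Saa2 and 4.18 for Saa3, and Saa4 led in all LKO libraries and in Flox 1 and 5.

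The share of each member in the family varied from liver to liver. Saa4 was 65.9% of the family's summed CPM per kb in LKO 1, 16.3% in LKO 2, 21.2% in LKO 3, 34.4% in LKO 4 and 51.9% in LKO 5, against 52.9% in Flox 1, 2.12% in Flox 2, 1.20% in Flox 3, 5.06% in Flox 4 and 47.0% in Flox 5. Saa4 was lowest in Flox 2, 3 and 4, but its share also differed widely among the LKO livers. The Saa3 share was 2.06% to 3.72% in all LKO libraries and in Flox 1 and 5, 0.309% in Flox 2, 0.658% in Flox 4 and 4.70% in Flox 3, so the 3 high livers lay on opposite sides of the rest. Together the 4 genes took 0.0301% to 0.138% of all counts in LKO and 0.0337% to 3.74% in Flox.

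The ratio of Saa1 to Saa2 was the one with the smallest p between the groups. It was 2.19, 2.22, 1.71, 1.62 and 1.70 in LKO 1 to 5, against 1.66, 1.27, 0.958, 1.01 and 1.31 in Flox 1 to 5, as a ratio of counts. Flox 1 was within the LKO range and the other 4 Flox libraries were below it, so the groups overlapped by 1 library. The mean log2 ratio was 0.90 ± 0.22 in LKO and 0.28 ± 0.32 in Flox (SD, n = 5 each), a difference of 0.62 with a two-sided exact permutation p of 0.0159, which did not pass after adjustment over the 6 ratios (0.0952). With 1 library left out the difference was between 0.53 and 0.73, and without Flox 2 and 3 it was 0.52 (exact permutation p = 0.0714). Whether reads that could come from either gene were counted is not known, and their part in this ratio was not tested.

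Saa1 to Saa3 split the Flox livers another way. The ratio of counts was 11.6, 26.7, 17.5, 11.3 and 10.7 in LKO 1 to 5, against 11.7, 193, 10.7, 78.9 and 10.6 in Flox 1 to 5. Flox 2 and 4 stood above all other libraries, and Flox 3, the library with the most Saa1, was level with the lowest LKO library. Saa3 to Saa4 was 0.00835 to 0.0374 in LKO, against 0.0130, 0.0386, 1.03, 0.0345 and 0.0166 in Flox 1 to 5, with Flox 3 alone far above the rest. Flox 2 and Flox 3 thus had Saa1 levels within 1.74-fold of each other and Saa3 levels 31.3-fold apart. The 5 ratios other than Saa1 to Saa2 gave two-sided exact permutation p of 0.135 to 0.437 between the groups (adjusted 0.262 to 0.437), and all 5 had a lower mean log2 ratio in LKO.

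**Figure D3:**
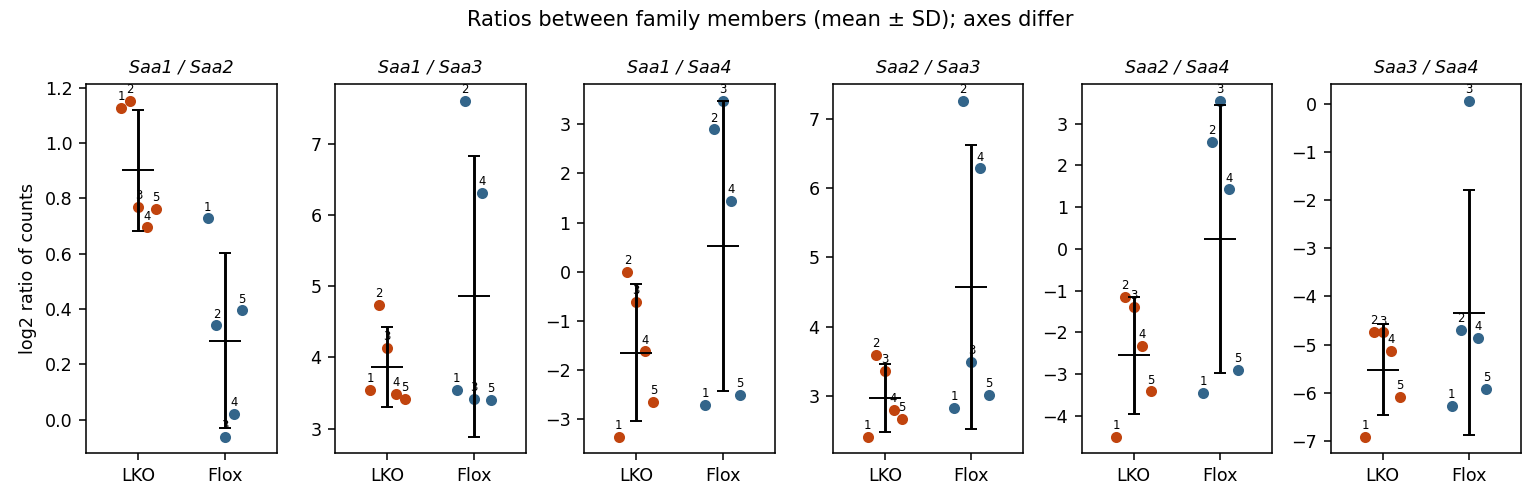
The log2 ratio of counts for the 6 pairs of members in each library, LKO left and Flox right, with the group mean and SD; each panel has its own axis. Saa1 to Saa2 is lower in 4 of 5 Flox libraries than in any LKO library, and Flox 2 and 4 part from Flox 3 in the ratios to Saa3.

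Across the 10 libraries the members varied together in log2 CPM. Pearson's r was 0.996 for Saa1 with Saa2 (Spearman's rho 0.988), 0.904 for Saa1 with Saa3 (rho 1.0), 0.979 for Saa1 with Saa4 (rho 0.952), 0.907 for Saa2 with Saa3 (rho 0.988), 0.972 for Saa2 with Saa4 (rho 0.927) and 0.897 for Saa3 with Saa4 (rho 0.952). Permutation p adjusted over the 6 pairs were at most 5e-05 for r and at most 0.0004 for rho. Saa1 and Saa3 thus ranked the 10 libraries in the same order. With the 2 libraries farthest from the median left out, r lay between 0.909 and 0.989, and with each group centred on its own mean it lay between 0.879 and 0.998.

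The relation was also present outside the 3 high livers. In the 7 libraries other than Flox 2, 3 and 4, r lay between 0.820 (Saa2 with Saa4) and 0.991 (Saa2 with Saa3), with adjusted permutation p of at most 0.0246. These 7 were chosen after the data were seen, by the same levels that are correlated. The values are a description of them and no independent test. The points share their library and its scaling, and the part of shared sequence in the value for Saa1 with Saa2 was not tested.

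**Figure D4:**
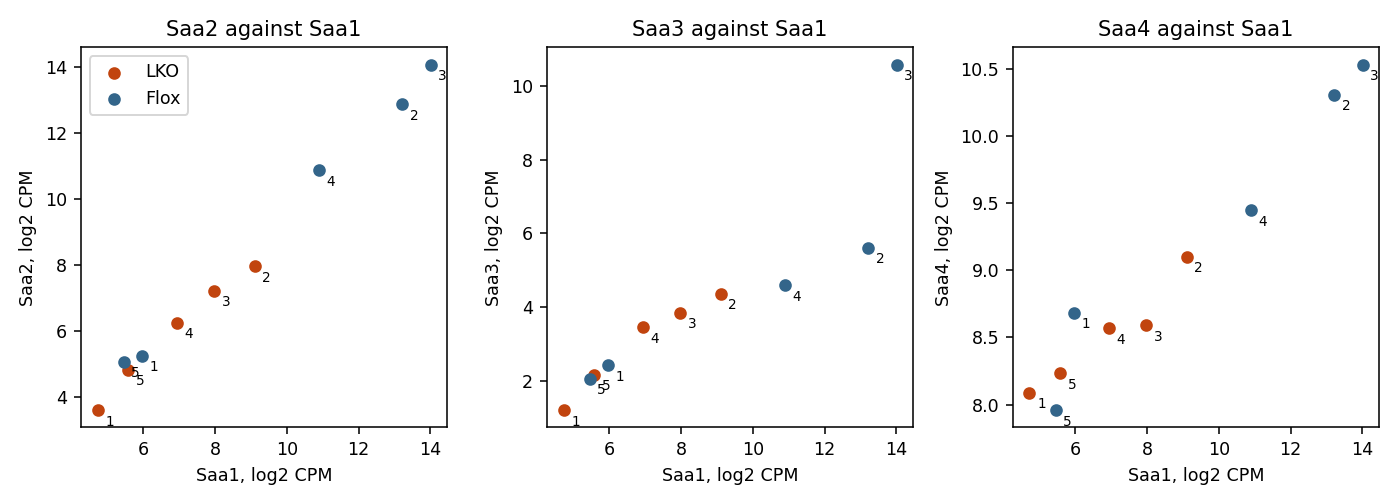
Log2 CPM of Saa2, Saa3 and Saa4 against that of Saa1, 1 point per library with its number. The libraries run along 1 line from LKO 1 to Flox 3 for Saa2 (r = 0.996), while Flox 3 lies above the run of the others for Saa3 (r = 0.904).

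The genes whose log2 CPM was most like that of Saa1, Saa2 or Saa4 included 8 from the list of acute phase proteins described further on, and those most like Saa3 included 0. They were chosen by Pearson's r over the 10 libraries among 11006 genes outside the family with a mean log2 CPM of at least 1, and are a description with no test. For Saa1 they were Tifa, an adaptor of TRAF signalling (r = 0.984), Hpx, the haem carrier hemopexin (0.982), Nnmt, nicotinamide N-methyltransferase (0.981), Lcn2, the siderophore binder lipocalin 2 (0.980), and Steap4, a metalloreductase (0.979). For Saa2 Tifa (0.988), Isyna1, which makes inositol phosphate (0.980), Lcn2 (0.979), Itih3, an inter-alpha-trypsin inhibitor chain (0.978), and Steap4 (0.978) led. For Saa3 they were Ifi47, an interferon-inducible GTPase (0.975), Psme2b (0.970), Idnk (0.969), Serpina3f (0.967) and Gpc4, a glypican (0.966), none of them among the 5 of another member. For Saa4 they were Lbp, the lipopolysaccharide binding protein (0.988), Cyp3a13, a cytochrome P450 (0.984), Orm1, orosomucoid (0.983), Mt2, a metallothionein (0.981), and Lrg1, a leucine-rich glycoprotein (0.979).

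Ifi47, the gene most like Saa3, stood at 10.1, 24.5, 23.2, 17.4 and 9.71 CPM in LKO 1 to 5, against 16.9, 30.4, 210.4, 40.0 and 14.0 CPM in Flox 1 to 5. Like Saa3 it was far above all other libraries in Flox 3. Lbp, the gene most like Saa4, stood at 86.0, 168, 123, 89.4 and 76.9 CPM in LKO 1 to 5, against 127, 378, 422, 189 and 72.1 CPM in Flox 1 to 5. It ranked the libraries as Saa4 did, except that LKO 1 and 5 changed places.

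The genes next to the cluster did not share the wide range of Saa1, Saa2 and Saa3. The range of Saa4 was smaller (5.96-fold), and the pseudogene Gm45308 came near it, from 0.488 CPM in LKO 1 to 2.53 CPM in Flox 3. Of the 15 genes annotated within 100 kb of the 4 members, a window added after the data were seen, 11 were tested, 7 of them outside the family. Their log2 fold changes of LKO over Flox ran from -0.78 ± 0.39 (SE) for the pseudogene Gm45308 to 0.10 ± 0.20 for the pseudogene Gm9392, and none passed edgeR's adjusted threshold. Saal1, the serum amyloid A-like gene next to Saa3, had 173, 251, 229, 173 and 266 counts in LKO 1 to 5, against 165, 465, 299, 320 and 227 counts in Flox 1 to 5 (log2 fold change -0.33 ± 0.25, edgeR adjusted p = 0.717). Flox 2, 3 and 4 were the 3 highest here too, within a 2.93-fold range of CPM.

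Hps5 (-0.15 ± 0.10), Gtf2h1 (-0.03 ± 0.11) and Sergef (0.01 ± 0.14), with roles in vesicle traffic, transcription and secretion, stayed near 0 on the log2 scale. Ldha, lactate dehydrogenase A, was at 724 ± 97.1 CPM in LKO and 1077 ± 332 CPM in Flox (-0.57 ± 0.20, edgeR unadjusted p = 0.0138, adjusted p = 0.652). Its highest levels were in Flox 2 and 3 (1441 and 1439 CPM). The pseudogene Saa-ps, between Saa4 and Saa1, had 0, 2, 1, 2 and 0 counts in LKO 1 to 5, against 0, 23, 33, 4 and 0 counts in Flox 1 to 5. It was below the filter, and its counts were highest in the 3 libraries with the most Saa1.

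**Figure D5:**
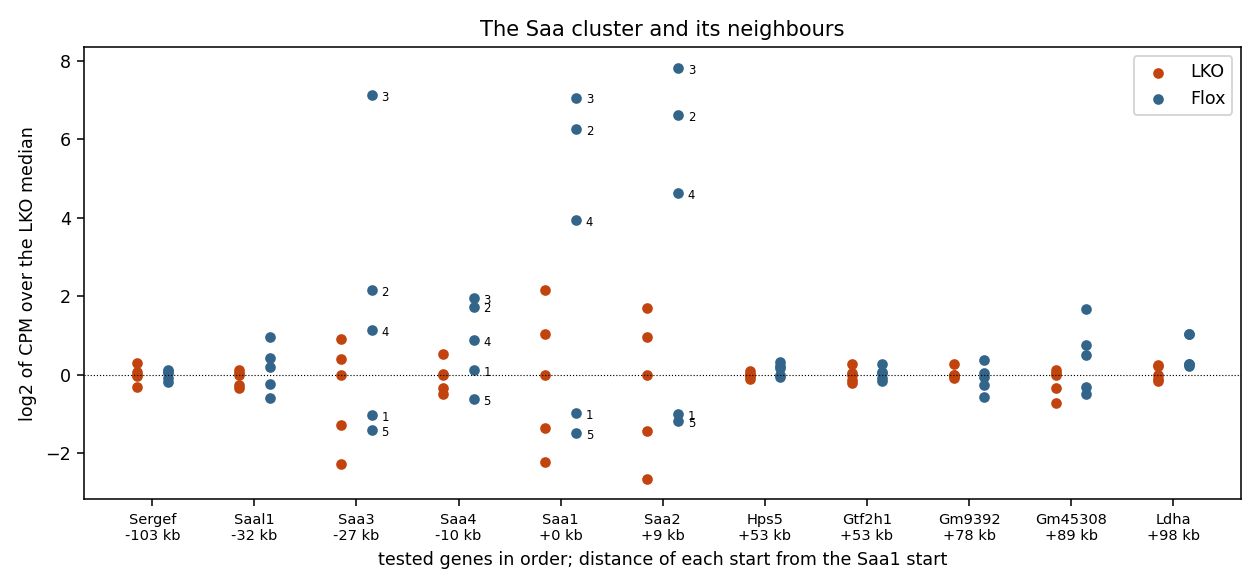
CPM of the tested genes around the cluster in each library, as log2 of the ratio to the LKO median of the gene, in the order of their starts, with the distance of each start from that of Saa1. The 4 family members spread over a wide range, up to Flox 3 at 17170 CPM for Saa2, while Hps5, Gtf2h1 and Sergef lie near 0.

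Of the genes that carry the inducing signal, 17 of 19 were tested and none passed in either direction. By value, 11 were lower (51.6% of all genes tested were) and 6 higher in LKO, with a median log2 fold change of -0.32, against -0.01 over all genes. At an unadjusted p under 0.05, 4 were lower (background 4.33%) and 1 was higher (3.17%). Myd88, the adaptor of the interleukin 1 and Toll-like receptors, was at 11.1 ± 0.72 CPM in LKO and 18.3 ± 7.43 CPM in Flox (-0.71 ± 0.23 SE, edgeR adjusted p = 0.652). Tnfrsf1a, a tumour necrosis factor receptor, had -0.54 ± 0.21 and Osmr, the oncostatin M receptor, -0.73 ± 0.30. Without Flox 2 and 3 the values were -0.26 for Myd88, -0.17 for Tnfrsf1a and -0.23 for Osmr. The remaining pair, named after their values were seen, were the interleukin 1 receptor Il1r1 (-1.95 ± 0.78) and its partner Il1rap (0.26 ± 0.12). Il1r1 stood at 10.7, 152, 140, 28.4 and 13.2 CPM in Flox 1 to 5, against 9.82 to 24.3 CPM in LKO. Its difference thus lay mostly in Flox 2 and 3.

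Of the transcription factors known at these promoters, 15 of 16 were tested and none passed. By value, 12 were lower (51.6% of all genes tested were) and 3 higher, with a median log2 fold change of -0.16. At an unadjusted p of edgeR under 0.05, 2 were lower (background 4.33%) and 1 was higher (3.17%). Nr3c1, the glucocorticoid receptor, stood at 73.2, 63.1, 69.3, 81.8 and 64.1 CPM in LKO 1 to 5, against 59.3, 54.5, 52.7, 61.2 and 61.3 CPM in Flox 1 to 5. All LKO libraries were above all Flox libraries, as for 0.535% of all genes, and the log2 fold change was 0.28 ± 0.09 (edgeR adjusted p = 0.652). Cebpd, the C/EBP factor induced in the acute phase, was at 7.88 ± 2.31 CPM in LKO and 13.1 ± 3.50 CPM in Flox (-0.73 ± 0.25). Without Flox 2 and 3 the values were 0.21 for Nr3c1 and -0.51 for Cebpd.

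The other proteins of the acute phase had lower fitted values in LKO with all 10 libraries. Of 26 listed, 25 were tested and all 25 had a negative log2 fold change (median -1.13), as did 51.6% of all genes. Of these, 17 had an unadjusted p of edgeR under 0.05 (background 4.33%) and none passed the adjusted threshold. The list was chosen with earlier results of these data known. Its summed CPM followed Saa1 over the 10 libraries (r = 0.988 on the log2 scale). The 17 are thus not independent of each other or of the Saa genes, and they are no test of the list. Lrg1 was at 612 ± 167 CPM in LKO and 2527 ± 2129 CPM in Flox (-2.05 ± 0.63), Serpina3n, a serine protease inhibitor, at 356 ± 58.7 CPM in LKO and 1217 ± 1048 CPM in Flox (-1.77 ± 0.56), and Mt2 at 1.24 ± 1.0 CPM in LKO and 26.1 ± 36.2 CPM in Flox (-4.39 ± 1.45). Without Flox 2 and 3 these values were -0.75 for Lrg1, -0.58 for Serpina3n and -1.17 for Mt2. Flox 1 and 5 had 676 and 471 CPM of Lrg1, within the LKO range of 436 to 852 CPM, so the difference lay in the other 3 Flox livers. Hamp, which encodes the iron hormone hepcidin and is named after its values were seen, was the only one of the list in which all LKO libraries were below all Flox libraries (0.371% of all genes tested), at 465 ± 223 CPM in LKO and 841 ± 84.1 CPM in Flox (-0.86 ± 0.32). Its Flox levels were 937, 773, 892, 735 and 866 CPM in libraries 1 to 5, so Flox 1 and 5, which were low in the Saa genes, were not low in Hamp.

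Downstream of the family, the list medians lay closer to 0 than that of the acute phase proteins (-1.13). Those of the receptors and of the amyloid list were not closer to 0 than that of the transcription factors (-0.16). Apcs, in the amyloid list, is also counted among the acute phase proteins above. For the counts that follow, 51.6% of all genes tested had a value below 0. At an unadjusted p of edgeR under 0.05, 4.33% of all genes were lower and 3.17% higher. Of 10 genes for receptors of serum amyloid A, 9 were tested and 8 were lower by value (median -0.22), none of them at an unadjusted p under 0.05; Scarb2 had a log2 fold change of -0.22 ± 0.13, P2rx7, a receptor of ATP, -0.38 ± 0.23 and Tlr2, a Toll-like receptor, -0.95 ± 0.60. Of the 18 genes of HDL and its remodelling, all tested, 8 were lower and 10 higher (median 0.05), with none under an unadjusted p of 0.05. Lcat, which esterifies the cholesterol of HDL, had -0.30 ± 0.15, Abca1, the exporter that loads HDL, 0.26 ± 0.13 and Rbp4, the retinol carrier, 0.14 ± 0.15. Of 11 genes for partners of AA amyloid and for proteases that degrade serum amyloid A, 8 were lower and 3 higher (median -0.22), 2 of them lower at an unadjusted p under 0.05: Apcs, the amyloid P component, at 69.2 ± 12.1 CPM in LKO and 223 ± 183 CPM in Flox (-1.69 ± 0.59), and Vim, vimentin (-0.41 ± 0.19). Mmp2, a metalloproteinase, had -0.57 ± 0.30. None of these passed edgeR's adjusted threshold, and several rested on 1 library: Tlr2 was at -0.30, Vim at -0.18, Lcat at -0.16, Scarb2 at -0.13 and Rbp4 at 0.09 without Flox 3, P2rx7 at -0.19 without Flox 4 and Mmp2 at -0.24 without Flox 5. Apcs was at -0.56 without Flox 2 and 3.

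Markers of the cells in the tissue moved in part with the family. The summed level of the hepatocyte markers, of which 9 of 10 were found by symbol, was 136866 to 164013 CPM in LKO and 59703 to 131345 CPM in Flox, with the lowest sums in Flox 3 (59703 CPM) and Flox 2 (85806 CPM). Albumin carried most of that sum, with 35246 CPM in Flox 3. Every LKO library (lowest 99511 CPM) was above every Flox library in albumin, as for 0.535% of all genes. This included Flox 1 (85227 CPM) and Flox 5 (93438 CPM), which were low in the Saa genes. The log2 fold change of albumin was 0.62 ± 0.26 (edgeR adjusted p = 0.652). Ttr (3608 CPM), Apoa1 (9151 CPM), Serpina1a (1959 CPM), Cps1 (1231 CPM) and Tat (514 CPM) were also at their lowest of all libraries in Flox 3. Fabp1 was lowest in Flox 2 (2344 CPM). Hnf4a and Apob did not follow albumin. Hnf4a, a hepatocyte transcription factor, was at 480 to 608 CPM in LKO, against 492.7, 686, 726, 555 and 493.8 CPM in Flox 1 to 5, highest in Flox 2 and 3. Apob, the structural protein of very low-density lipoprotein, was at 4337 to 5500 CPM in LKO, against 3729, 4899, 4771, 3929 and 4348 CPM in Flox 1 to 5, so Flox 2 and 3 were the highest Flox libraries. The 14 Kupffer cell and macrophage markers summed to 108 to 692 CPM in LKO and 176 to 857 CPM in Flox. The sum was highest in Flox 4 and not in Flox 3 (489 CPM), where Saa3 was highest. Within the list, Ccr2 (7.51 CPM), Itgax (2.71 CPM) and Lyz2 (99.8 CPM) were at their highest of all libraries in Flox 3. The rest of the list peaked in Flox 4 or LKO 2. In Ccr2 all LKO libraries were below all Flox libraries (0.371% of all genes), though by little: LKO 2 had 1.710 CPM and Flox 1 had 1.712 CPM. The 10 neutrophil markers summed to 2.46 to 23.9 CPM in LKO and 1.46 to 25.0 CPM in Flox. The 6 adipocyte markers summed to 5.52 to 125.6 CPM in LKO and 0.366 to 89.7 CPM in Flox. Their sum was low in Flox 2, 3 and 4 (0.769, 3.69 and 0.366 CPM). Only 2 of the 6, Cidea and Cfd, passed the filter. Cidea carried most of the high sums, with 116 CPM in LKO 1, 78.6 CPM in Flox 1 and 69.4 CPM in Flox 5. The sum is therefore not read as a level of adipocytes.

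The 8 stellate cell and fibroblast markers summed to 151 to 213 CPM in LKO and 103 to 241 CPM in Flox, with the lowest sums in Flox 3 and 2 (103 and 107 CPM). The 8 endothelial markers summed to 82.2 to 128 CPM in LKO and 95.2 to 140 CPM in Flox, and the 9 T and B cell markers to 7.88 to 16.1 CPM in LKO and 7.06 to 25.2 CPM in Flox. No marker of any list was at 0 in all libraries. In whole liver, fewer cells of a type and less RNA per cell cannot be told apart, and the part of cell makeup in the levels of the Saa genes was not tested.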

How the data were processed

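Poly(A) RNA (oligo-dT, per the labels' protocols) of whole liver was sequenced in 10 libraries. The deposited table gives raw read counts for Ensembl genes, not normalized, per the file headers. Tools named in the submitters' processing notes are bcl2fastq, STAR 2.5.1a, Subread, featureCounts 1.4.6-p5, with the build GRCm38. The sources used here do not state strandedness, annotation release or how reads that fit several places were handled; such reads may be lost from Saa1 and Saa2 or split between them.

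After 287 repeated lines were dropped, 55487 genes remained. Genes were filtered with filterByExpr, scaled by TMM and compared with the quasi-likelihood F test of edgeR 4.0.16 in R 4.3.3 (robust fit, no covariate), with Benjamini-Hochberg adjustment over 15894 genes and a threshold of 0.05. The SE of a log2 fold change was derived from the F statistic. DESeq2 1.42.0 (default settings, on the same filtered genes) and limma-voom with quality weights (limma 3.58.1) were alternatives. Log2 CPM used a prior count of 2. Ratios were log2 of counts with 0.5 added, compared by two-sided exact permutation; correlations used 100000 permutations. The fit and the permutation tests were tested on simulated data.

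No pairing by column number was used, since no label pairs the groups. Residuals of same-numbered libraries correlated at 0.0736 to 0.354, not above 0.1 in all 5. Numbers 1 (0.354) and 5 (0.288) correlated best with their own number, so the check cannot exclude a pairing. No 2 libraries agreed within sampling noise. No label says that each library is a separate mouse, so p-values measure the spread between libraries, which may be partly technical.

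The members and the gene lists were chosen with earlier results of these data known. Named genes were the members, the 5 genes most like each, and in each list up to 3 with the smallest p, since none passed; exceptions are named as such. A gene named by this rule is not reported here. Promoters matched by symbol in RefSeq's table for all 4 members.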

Additional observations from a re-analysis of the deposited data

Results flagged for a closer look

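In groups of 5, a library was marked when its gap to the next one took more than 0.71 of the group's range (Dixon's 95% value). Of 84 groups of values examined, 6 were marked; chance marks about 5%. Of the 6, 4 were the highest value of Flox 3. The groups are not independent, since they include ratios between members and genes picked for their likeness to a member over these libraries. Ifi47 was picked as most like Saa3, Lcn2 was among the genes most like Saa1 and Saa2, and Saa3 is part of the Saa3 to Saa4 ratio. The marks in Flox 3 are therefore a description and not separate observations.

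Saa3 stood at 1533.2 CPM in Flox 3, where the next Flox library had 49.0 CPM, and its log2 ratio of counts to Saa4 was 0.049 there, against -4.69 in the next. In the same library Ifi47 stood at 210.4 CPM (40.0 CPM in the next) and Lcn2 at 3388 CPM (785 CPM in the next). Lcn2 was also marked in LKO 2, at 183.3 CPM with 55.8 CPM in the next LKO library, and LKO 2 had the highest Saa1, Saa2, Saa3 and Saa4 of its group. Lcat was marked on the low side in LKO 4, at 387.9 CPM, with 464.5 CPM in the next.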

How the results depend on the processing

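Of the 75 alternatives for the members' log2 fold changes none turned the direction, and 1 changed the call: DESeq2 put Saa2 past the threshold at -5.70. DESeq2 called 11 genes in all (8184 given an adjusted p), against 0 with edgeR and limma-voom under every other setting. Lowest and highest log2 fold changes with 1 library left out were -5.64 and -3.85 for Saa1, -6.34 and -4.53 for Saa2, -5.34 and -0.98 for Saa3, and -1.36 and -0.80 for Saa4. Limma-voom with quality weights, which gives deviating libraries less weight by construction, gave -2.24, -2.87, -1.39 and -0.67, in the same order.

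With the column number as a replicate block the values were -3.12, -3.77, -1.67 and -0.87 (edgeR adjusted p = 0.506 to 0.611), with 0 genes called and 1535 under an unadjusted p of 0.05; 2 of 5 libraries correlated best with their own number, so no pairing is read from it. Genes under an unadjusted p of 0.05 numbered 575 without Flox 3, 517 without Flox 2 and 3, 739 without LKO 4 and 1885 without Flox 5, against 1193 with all libraries. Without Flox 2 and 3, the Saa3 to Saa4 log2 ratio turned to 0.163 (-1.18 with all libraries) and the log2 fold change of Gpc4 to 0.030 (-0.22 with all libraries); the libraries left out are those with the highest values. The correlations between members kept their direction and their side of the threshold under all 90 alternatives. Of 240 alternative values for the genes most like each member, 45 moved by more than their spread over left-out libraries, 19 of them without Flox 3: there the 5 genes most like Saa3 had r of 0.867 to 0.916, while those of the other members kept r of 0.967 to 0.994 throughout.

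Depth limits Saa-ps and Arg2, where a count of 0 allows up to 3 counts per library, counting error only.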
